A study of Mus musculus with 24 samples.

Results

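Mitochondria keep a small circular genome of their own (mtDNA), and every protein that copies, transcribes and translates it is encoded in the nucleus. The 33 genes described here code for such proteins. They comprise 5 factors that replicate and keep mtDNA, 4 that transcribe it or stabilize its transcripts, 8 that start, extend and end translation on the mitochondrial ribosome, and 16 aminoacyl-tRNA synthetases that load mitochondrial tRNAs with amino acids. They were taken by name from the gene annotation of the array, out of 22328 genes with a matched probe. The question was whether their mRNA levels in the *M. gastrocnemius*, the large calf muscle, differed between mice that had breathed 12% oxygen (Hypox) and mice that had breathed 20.9% oxygen (Norm) for 6 h.

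All animals were male C57BL/6JOlaHsd mice, an inbred strain, that arrived at 10 weeks of age, were given a diet with 10% of its energy from fat for 3 weeks and then one with 40% of its energy from fat for 6 weeks, and were fasted during the exposure. Both groups held 12 animals, and each animal had its own array, on which its Cy5-labelled sample was read against a Cy3-labelled reference pool made from all samples. The whole muscle was ground, so fewer cells of a type and less RNA per cell cannot be told apart. The arrays lay on 6 slides with 2 Norm and 2 Hypox arrays each. Mean Cy5 signal ran from 58.3 to 933 over the Norm arrays and from 63.5 to 1014 over the Hypox arrays.

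All 9 fast and general markers of skeletal muscle were measured. Hypox replicate 2 stood apart from the other arrays: 34.8% of all genes tested had their highest or lowest value of the 24 arrays on it, against 2.74% to 18.8% on each of the other 23 arrays. Of the members, 7 had their highest value there (*Iars2*, *Lars2*, *Pars2*, *Sars2*, *Polg2*, *Tfam* and *Mtif3*) and 5 their lowest (*Hars2*, *Yars2*, *Polg*, *Mtif2* and *Mtrf1l*). Values without this array are given where leaving it out changed a call or moved a value by over 1.5 times, apart from *Aars2*, *Ears2*, *Polg* and *Gfm1*, which lay within 0.03 of 0 both with and without it.

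In the matrix of the mitochondrion, POLG with its accessory subunit POLG2 copies mtDNA behind the helicase Twinkle, while SSBP1 covers the single strand that is laid open. TFAM packs mtDNA and bends it at the promoters, where the RNA polymerase POLRMT starts transcription together with TFB2M. The messages are translated by ribosomes of bacterial type with factors of bacterial type, and the products are core subunits of the respiratory chain and of ATP synthase. Skeletal muscle, and above all its oxidative fibers, depends on this machinery for the respiratory chain.

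The members were read with 51 probes of 60 bases, each on a single spot. A probe counted as measured when its Cy5 signal averaged over 2 times the local background across the arrays, and 36 probes of 28 members passed. The probe with the brightest average stood for its gene. Its signal over background ran from 2.20 (*Ears2*) to 50.2 (*Lrpprc*) with a median of 5.48, and 9 of the 28 members were well above background on all 24 arrays, the fewest for any member being 13 arrays. The members just above the limit were *Ears2* at 2.20 and *Hars2* at 2.37 times background. Just below it lay *Vars2* at 1.84 and the Twinkle helicase gene *Peo1*, now named *Twnk*, at 1.76. *Mars2*, *Wars2* and *Nars2* were at 1.43, 1.43 and 1.13 times background with their brightest probes, and *Mars2* and *Nars2* were well above background on no array. These 5 members are not counted below.

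The probes behind the values discussed at most length are shown so that the measured stretch of each transcript can be recognized. The first 30 bases of the 60 are printed, except for *Mtif2*, where the last 30 are printed.
Mtif2 (last 30 bases): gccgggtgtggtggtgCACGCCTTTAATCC
Mtif3: aacagcaaagagtcggatgttgtgtgtcag
Mtif3 (second probe): tttagaaaccagctaggcttaggcaaactg
Pars2: gggtcacttcagcactgagatcatgttctg
Tfam: ctttgagccttgacagaagatgatgctgag
Tfam (second probe): ctctgagcattaagatggaagacggagttg
Polrmt: cctgtgcataatgtaaataaatgaaagttt
Yars2: ttctgaattagttcttgatcctggaacgag
In the mm9 annotation of the array, the whole *Mtif2* probe lies at chr11:29445083-29445142 on the plus strand, the *Mtif3* probe at chr5:147767143-147767202 and its second probe at chr5:147766132-147766191, both on the minus strand, and the *Pars2* probe at chr4:106327826-106327885 on the plus strand. The *Tfam* probes lie on the minus strand at chr10:70691103-70691162 and chr10:70691260-70691319, the *Polrmt* probe on the minus strand at chr10:79198897-79198956, and the *Yars2* probe on the plus strand at chr16:16307393-16307452. The capitals in the *Mtif2* line mark its last 14 bases, which also occurred, on either strand, in 4 probes of other genes and in 11 of 32851 promoter windows of the mouse. For the other 50 member probes, the last 14 bases occurred in at most 2 probes of other genes and at most 2 promoter windows. The printed end of the *Mtif2* probe reads as the start of a B1 element, a short repeat found in very many mouse transcripts.

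Differences were tested on the log2 ratio of sample over reference with limma's moderated test over all 9139 genes measured. Of the 28 measured members, 3 passed an unadjusted P-value of 0.05, and of all genes tested 12.2% passed. In the direction of higher values in Hypox, 2 members passed (*Mtif3* and *Pars2*), against 7.12% of all genes, and in the direction of lower values 1 member passed (*Mtif2*), against 5.03% of all genes. After Benjamini-Hochberg adjustment no member passed, against 0.339% of all genes, and the smallest adjusted P-value of a member was 0.266. The share of members past the threshold was thus near that of all genes. The log2 fold changes of the 28 members ran from -0.21 to 0.36 with 20 above 0 and a median of 0.09, beside a median of 0.03 and 58.8% above 0 for all genes tested.

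**Figure D1:**
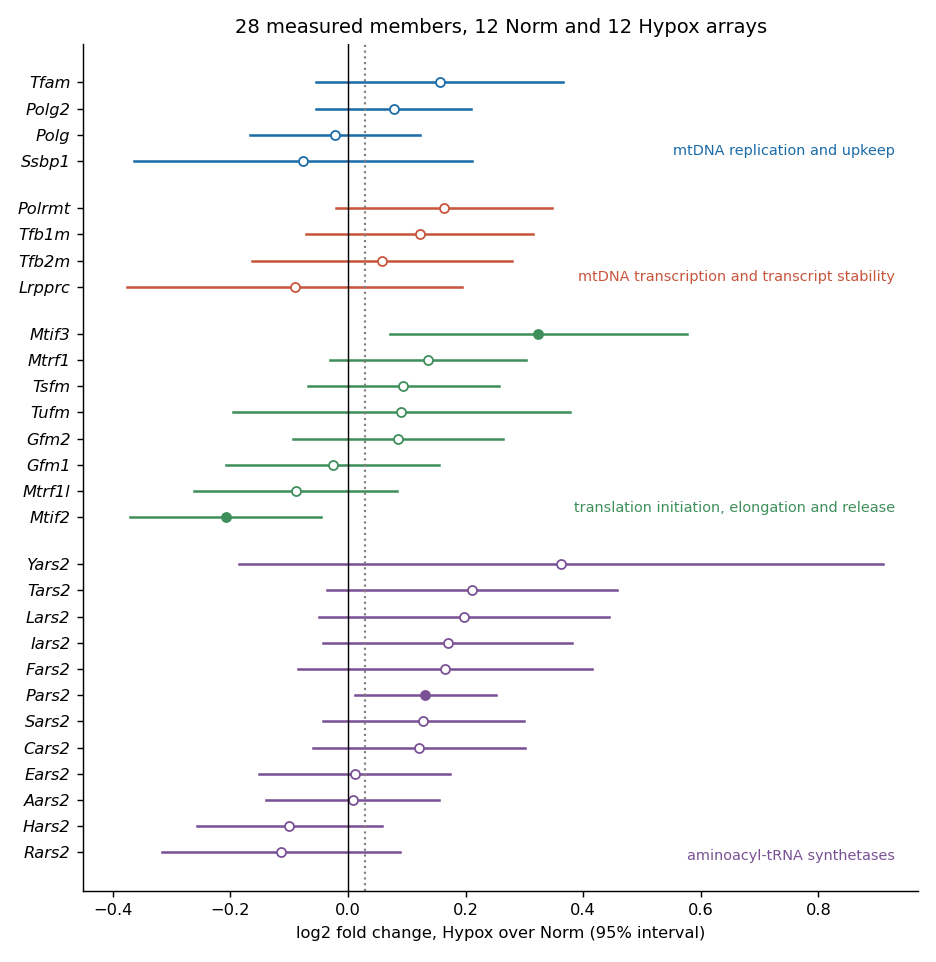
Log2 fold change of Hypox over Norm (x axis) for the 28 measured members, grouped by role, with 95% intervals from limma. Filled points passed an unadjusted P-value of 0.05, and the dotted line is the median of all genes tested at 0.03. All intervals but those of *Mtif2*, *Mtif3* and *Pars2* include 0.

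Of the 5 factors of mtDNA replication and upkeep, 4 were measured and none passed the test, with a median log2 fold change of 0.03. *Tfam* had the smallest P-value among them. Its log2 ratio was between -0.43 and 0.26 on the Norm arrays, with a median of -0.10 and a mean of -0.11 ± 0.21 (SD, n = 12). On the Hypox arrays it was between -0.42 and 0.66, with a median of 0.04 and a mean of 0.05 ± 0.30 (SD, n = 12). The groups overlapped, with 9 of 12 Hypox arrays above the Norm median and 2 above every Norm array. The log2 fold change of *Tfam* was 0.16 ± 0.10 (SE, P = 0.138, adjusted P = 0.554), with an interval from -0.05 to 0.37. Without Hypox replicate 2, which held the highest value, it was 0.10 (P = 0.285).

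*Tfam* had a second measured probe, with a signal 4.48 times background against 8.90 for the first. On that probe, in a fit of every probe on its own, the log2 fold change was 0.25 ± 0.10 (SE, P = 0.0212, adjusted P = 0.256), and with the mean of both probes it was 0.20 (P = 0.0342). The second probe also had its highest value on Hypox replicate 2, at 0.97, while the next highest Hypox value was 0.23. Without that array its log2 fold change was 0.16 ± 0.07 (SE, P = 0.0221). Both probes were positive, and *Tfam* did not pass the unadjusted threshold with the brighter probe alone.

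The catalytic subunit *Polg* had a log2 fold change of -0.02 ± 0.07 (SE) and the accessory subunit *Polg2* one of 0.08 ± 0.06. *Ssbp1*, which codes for the single-strand binding protein, had one of -0.08 ± 0.14. The spread of *Ssbp1* was wider in Norm, where values ran from -0.45 to 1.26, than in Hypox, where they ran from 0.07 to 0.65. The 95% interval was -0.17 to 0.12 for *Polg*, -0.05 to 0.21 for *Polg2* and -0.36 to 0.21 for *Ssbp1*. Without Hypox replicate 2, which held its highest value, *Polg2* was at 0.05.

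All 4 genes of transcription and transcript stability were measured and none passed the test, with a median log2 fold change of 0.09. *Polrmt*, the mitochondrial RNA polymerase, had the smallest P-value of them. On the Norm arrays its log2 ratio was between -0.64 and 0.17, with a median of -0.13 and a mean of -0.15 ± 0.22 (SD, n = 12). On the Hypox arrays it was between -0.35 and 0.41, with a median of 0.05 and a mean of 0.02 ± 0.22 (SD, n = 12). Of the Hypox arrays, 10 of 12 lay above the Norm median, while the groups overlapped. The log2 fold change was 0.16 ± 0.09 (SE, P = 0.0803, adjusted P = 0.472), with an interval from -0.02 to 0.35. Within slides it was between -0.13 and 0.75 and positive on 5 of 6 slides, and the largest difference lay on slide 2.

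*Polrmt* passed the unadjusted threshold in 4 of 24 leave-out fits, namely without Norm replicate 4 or 12 or without Hypox replicate 2 or 4. Its value was 0.20 (P = 0.0317) when Hypox replicate 2 was left out, and with array weights it was 0.20 (P = 0.0123). *Polrmt* stayed positive but did not pass with processed signals (0.11, P = 0.36), the Cy5 channel alone (0.10, P = 0.35) or the deposited values (0.25, P = 0.168).

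*Tfb1m*, which codes for a methyltransferase of the small ribosomal RNA, and *Tfb2m*, which codes for the initiation factor of the polymerase, had log2 fold changes of 0.12 ± 0.09 and 0.06 ± 0.11 (SE), and *Tfb2m* was at 0.09 without Hypox replicate 2. *Lrpprc*, whose product keeps mitochondrial mRNAs stable, had one of -0.09 ± 0.14. It is described further because of its values, which were seen before it was chosen. On the Norm arrays *Lrpprc* was between 0.10 and 0.76 with a median of 0.39, and on the Hypox arrays between -0.13 and 1.61 with a median of 0.16. The highest value was that of Hypox replicate 12, and the next highest Hypox value was 0.56. On 5 Hypox arrays *Lrpprc* lay below every Norm array, and within slides the difference was negative on all but slide 1, which holds that array. Without Hypox replicate 12 the log2 fold change was -0.21 (P = 0.0348), and with the Cy5 channel alone it was -0.25 (P = 0.0232). With processed signals it was -0.07 (P = 0.614). The sign of *Lrpprc* turned with the deposited values (0.16, P = 0.586) and with arrays centred on their median (0.34, P = 0.492).

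Hypox replicate 12 was also the highest of the 24 arrays for *Tars2*, *Fars2* and *Tufm*. These 3 genes and *Lrpprc* were read by probes with signals of 25.5 to 50.2 times background, and the array lay on slide 1, the dimmest of the 6. *Tufm* was at 1.01 there, while its next highest Hypox value was -0.22, and without this array its log2 fold change went from 0.09 to -0.03. That of *Tars2* went from 0.21 to 0.13 (P = 0.205) and that of *Fars2* from 0.17 to 0.06 (P = 0.454).

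**Figure D2:**
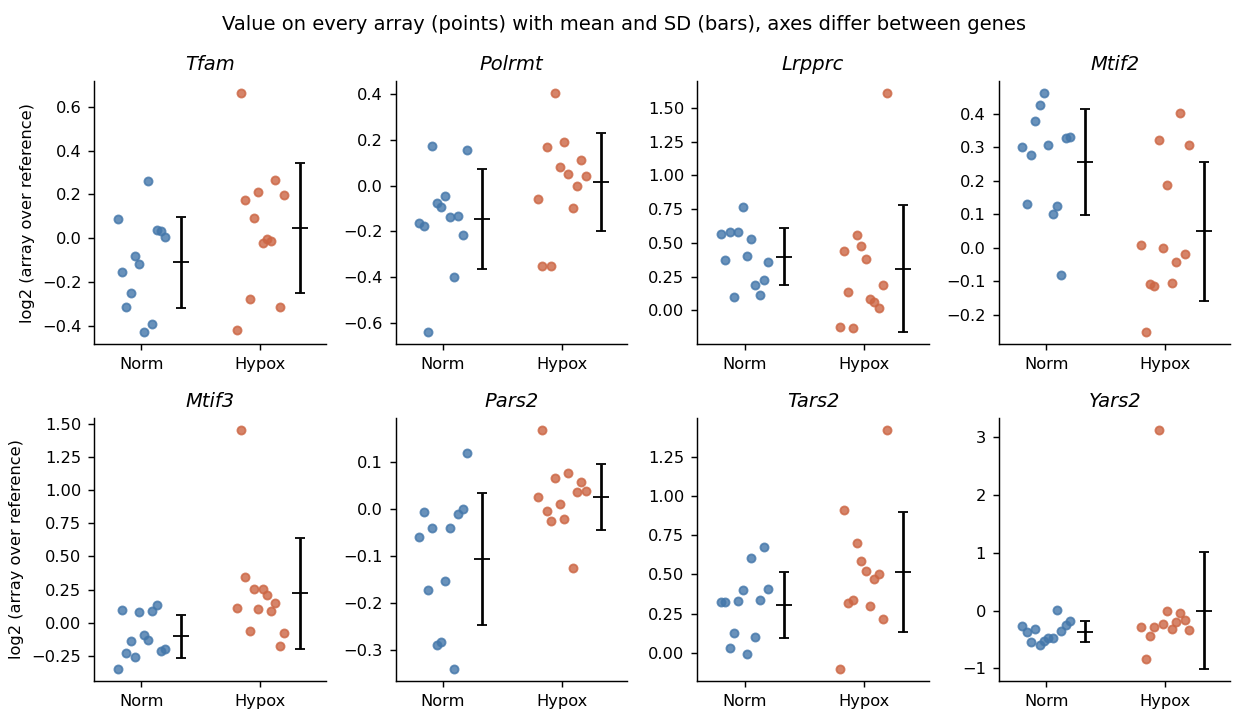
Log2 ratio of sample over reference (y axis, scale differs between panels) on each of the 12 Norm and 12 Hypox arrays for 8 members, in the order of the replicate numbers, with mean and SD beside the points. The groups overlap in every panel, and *Lrpprc*, *Mtif3* and *Yars2* each have a single Hypox array far above the rest.

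The 8 factors of translation initiation, elongation and release were all measured. They held 2 of the 3 members that passed the unadjusted threshold, so that 2 of 8 passed, beside 12.2% of all genes. These 2 are the initiation factors, and neither passed after adjustment. *Mtif2* was lower in Hypox and *Mtif3* was higher, while the median of the 8 was 0.09. *Mtif2* codes for the factor that brings the formylated initiator tRNA to the ribosome. On the Norm arrays its log2 ratio was between -0.08 and 0.46, with a median of 0.30 and a mean of 0.26 ± 0.16 (SD, n = 12).

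On the Hypox arrays *Mtif2* was between -0.25 and 0.40, with a median of -0.01 and a mean of 0.05 ± 0.21 (SD, n = 12). Only 3 of 12 Hypox arrays were above the Norm median, and 4 were below every Norm array. The log2 fold change was -0.21 ± 0.08 (SE, P = 0.0137, adjusted P = 0.266), which is a level of 0.866 times that of Norm. Within slides the difference was between -0.37 and 0.09 and was negative on 5 of 6 slides. With the slide as a block the P-value was 0.0138. The only probe of *Mtif2* ends in the B1-like stretch shown above, and whether other transcripts add to its signal was not tested.

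The lowest Hypox value of *Mtif2* was again that of replicate 2. Leaving out any 1 of the 24 arrays gave log2 fold changes from -0.24 to -0.18, and all 24 fits passed 0.05. The direction of *Mtif2* held with the scanner's processed signals (-0.25, P = 0.0036) and with the Cy5 channel alone (-0.25, P = 0.0197). With the deposited values it was -0.02 (P = 0.937), and with arrays centred on their median in place of loess it turned to 0.17 (P = 0.703), where the median of all genes was 0.25.

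*Mtif3* codes for the factor that splits the ribosome and prepares the small subunit for a message. On the Norm arrays its log2 ratio was between -0.35 and 0.13, with a median of -0.14 and a mean of -0.10 ± 0.16 (SD, n = 12). On the Hypox arrays it was between -0.17 and 1.46, with a median of 0.13 and a mean of 0.22 ± 0.42 (SD, n = 12). Of the Hypox arrays, 11 of 12 were above the Norm median and 6 were above every Norm array, while 5 Norm arrays were below every Hypox array. The log2 fold change was 0.32 ± 0.12 (SE, P = 0.0138, adjusted P = 0.266), a level of 1.25 times that of Norm.

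The highest value of *Mtif3* was that of Hypox replicate 2, and the next highest was 0.35. Without that array the log2 fold change fell to 0.21 and the P-value to 0.00735, since the spread fell as well. The difference was positive on all 6 slides, between 0.11 and 1.01, and with the slide as a block the P-value was 0.0094. On the second probe of *Mtif3*, at 2.33 times background against 4.20, the log2 fold change was 0.12 ± 0.08 (SE, P = 0.149). With 3 other ways of scaling, *Mtif3* remained positive and did not pass: centred on the median (0.46, P = 0.0682), processed signals (0.38, P = 0.0615) and the Cy5 channel alone (0.27, P = 0.0597). The study lists *Mtif3* among the genes it picked from these same samples, so it is no independent evidence.

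The elongation factors did not pass the test. *Tufm*, which codes for the factor that carries loaded tRNAs to the ribosome, and *Tsfm*, whose product recharges it, had log2 fold changes of 0.09 ± 0.14 and 0.09 ± 0.08 (SE). *Gfm1*, the translocase of elongation, had one of -0.03 ± 0.09, and *Gfm2*, which acts in ribosome recycling, one of 0.08 ± 0.09. The release factor genes *Mtrf1* and *Mtrf1l* had log2 fold changes of 0.14 ± 0.08 and -0.09 ± 0.08. *Mtrf1l* had within-slide differences from -0.48 to 0.18, with 3 of 6 positive, and without Hypox replicate 2 it was at -0.05. *Mtrf1* passed the unadjusted threshold without Norm replicate 11 (0.17, P = 0.0485) and with array weights (0.16, P = 0.0415). It passed in 1 of 24 leave-out fits, and with the Cy5 channel alone it was at 0.05 (P = 0.735).

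**Figure D3:**
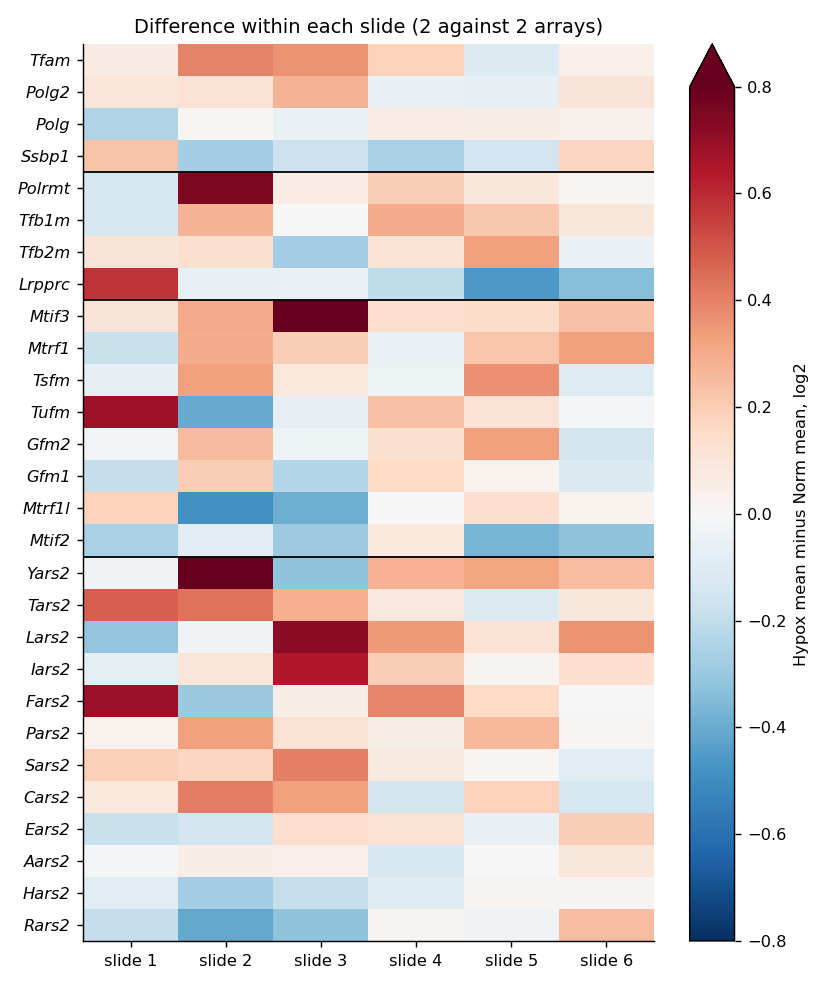
Hypox mean minus Norm mean of the log2 ratio within each of the 6 slides (columns, 2 arrays against 2) for the 28 measured members (rows, by role in the order of the plot of fold changes), with red for higher and blue for lower in Hypox and the color scale ending at 0.8. *Mtif3* and *Pars2* are positive on all 6 slides, and *Mtif2* is negative on 5.

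Among the 16 aminoacyl-tRNA synthetases, 12 were measured. Their median log2 fold change was 0.13, with 10 of 12 above 0 against 58.8% of all genes. The unadjusted threshold was passed by 1 of the 12, against 12.2% of all genes. This was *Pars2*, which loads the mitochondrial tRNA for proline. On the Norm arrays its log2 ratio was between -0.34 and 0.12, with a median of -0.05 and a mean of -0.11 ± 0.14 (SD, n = 12). On the Hypox arrays it was between -0.12 and 0.17, with a median of 0.03 and a mean of 0.03 ± 0.07 (SD, n = 12). Of the Hypox arrays, 11 of 12 were above the Norm median, and 5 Norm arrays were below every Hypox array.

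The log2 fold change of *Pars2* was 0.13 ± 0.06 (SE, P = 0.0324, adjusted P = 0.35). The difference was positive on all 6 slides, between 0.01 and 0.33, and with the slide as a block the P-value was 0.0413. The call rested on single arrays: leaving out 1 array at a time gave log2 fold changes from 0.11 to 0.15, and 20 of 24 fits passed. The 4 that did not were those without Norm replicate 5, 6 or 9 or without Hypox replicate 2. The probe was 3.02 times background and was well above background on 8 Norm and 9 Hypox arrays.

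*Pars2* stayed positive but did not pass with several other settings. The P-value was 0.128 with processed signals, 0.238 with the Cy5 channel alone, 0.349 with the deposited values, 0.173 with arrays centred on their median, 0.0666 with array weights and 0.0539 with the replicate number as a block.

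The other 11 measured synthetases did not pass. Those with log2 fold changes above 0.1 were *Yars2* for tyrosine (0.36 ± 0.27, SE), *Tars2* for threonine (0.21 ± 0.12), *Lars2* for leucine (0.20 ± 0.12), *Iars2* for isoleucine (0.17 ± 0.10), *Fars2* for phenylalanine (0.17 ± 0.12), *Sars2* for serine (0.13 ± 0.08) and *Cars2* for cysteine (0.12 ± 0.09). *Ears2* for glutamate and *Aars2* for alanine were at 0.01 ± 0.08 and 0.01 ± 0.07. *Hars2* for histidine and *Rars2* for arginine were at -0.10 ± 0.08 and -0.11 ± 0.10. *Lars2* and *Iars2* had their highest values on Hypox replicate 2, and without it their log2 fold changes were 0.10 and 0.10. Some of these genes passed the unadjusted threshold in single other fits, namely *Iars2* without Norm replicate 6 (0.21, P = 0.0442), *Lars2* without Hypox replicate 12 (0.25, P = 0.037) and with array weights (0.18, P = 0.0387), and *Tars2* without Hypox replicate 1 (0.27, P = 0.0271) and with processed signals (0.29, P = 0.00808). Each passed in 1 of 24 leave-out fits. With array weights *Tars2* was at 0.08 (P = 0.415). With the Cy5 channel alone *Lars2* was at 0.11 (P = 0.495) and *Iars2* at 0.13 (P = 0.33).

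*Yars2* had the highest log2 fold change of all members and the widest interval, from -0.19 to 0.91. Its value was 3.13 on Hypox replicate 5 and between -0.84 and 0.00 on the other 23 arrays. On that array the Cy5 signal of the spot was 1302, against a median of 92.6 on the other arrays, and its Cy3 signal was 385 against 574. The local Cy5 background of the spot was 262 there and between 27.0 and 34.0 elsewhere. Without Hypox replicate 5 the log2 fold change of *Yars2* was 0.08 (P = 0.376). *Yars2* was singled out after its values were seen.

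The synthetases of the cytosol, which load the tRNAs used by cytosolic ribosomes, served as a comparison. Of 18 listed genes 16 were measured, none passed the unadjusted threshold, and their median log2 fold change was 0.00, with 8 of 16 above 0. Over all genes tested, 12.2% passed and 58.8% were above 0. The difference between the mitochondrial and the cytosolic synthetases was not tested.

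For 8 members 2 probes were measured. The signs of both probes were the same for 5 of them (*Mtif3*, *Ssbp1*, *Tars2*, *Tfam* and *Tufm*). They were opposite for the other 3, *Gfm2* (0.08 and -0.11), *Iars2* (0.17 and -0.05) and *Polg* (-0.02 and 0.10), none of which passed with either probe. Without Hypox replicate 2 both probes of *Polg* were above 0, at 0.003 and 0.03. In the fit of every probe on its own, 4 of 36 member probes passed an unadjusted 0.05, against 14.1% of all measured probes.

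**Figure D4:**
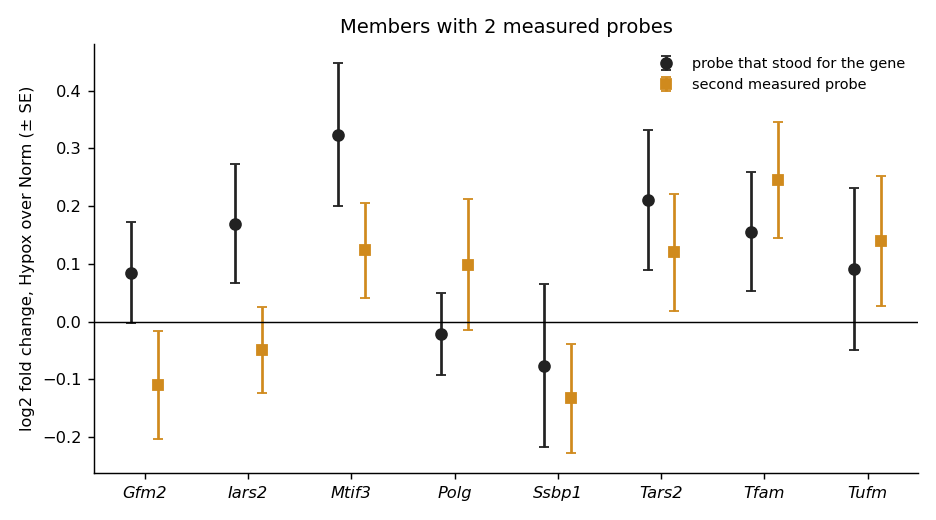
Log2 fold change of Hypox over Norm with SE (y axis) for the 8 members with 2 measured probes, from the fit of every probe on its own. Circles are the probes that stood for the gene and squares the second probes, and the signs are opposite for *Gfm2*, *Iars2* and *Polg*.

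Averaged over the 28 measured members, the log2 ratio was between -0.19 and 0.00 on the Norm arrays, with a mean of -0.07 ± 0.05 (SD, n = 12). It was between -0.13 and 0.17 on the Hypox arrays, with a mean of 0.00 ± 0.09 (SD, n = 12). The groups overlapped. The difference between the group means was positive within each of the 6 slides, from 0.04 to 0.13, and the highest slide was slide 2, which holds the *Yars2* value of Hypox replicate 5. Within slides, the median of all genes tested differed by -0.01 to 0.05. That is a median and the member value is a mean, which single extreme spots can move, so the ranges are not directly comparable.

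The members serve the expression of the genes that mtDNA itself holds. All 13 protein-coding transcripts of mtDNA were measured, and all 13 had a log2 fold change below 0, with a median of -0.84. In limma's test 11 of them passed an unadjusted 0.05, against 12.2% of all genes, and 2 passed after adjustment, against 0.339% of all genes. These 2 were *ND4L* (-1.17 ± 0.26, SE, adjusted P = 0.0421) and *ATP8* (-0.84 ± 0.19, SE, adjusted P = 0.0421), which code for a subunit of complex I and one of ATP synthase. The mean over the 13 was between -0.42 and 1.79 on the Norm arrays and between -0.61 and 1.28 on the Hypox arrays. It was lower in Hypox within all 6 slides, with differences from -1.26 to -0.16. The highest mean of each group lay on slide 1, the dimmest in Cy5, and every mean on slide 6, the brightest, was below 0. The lowest Hypox mean lay on slide 5. The part of array brightness in these values was not tested. Nor was it tested whether the 13 vary together, so the 11 need not be separate results. With arrays centred on their median, 9 of 13 were below 0 and none passed, and with the deposited values all 13 were below 0 and none passed. This group was added after its values were seen, and its difference from the members was not tested.

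**Figure D5:**
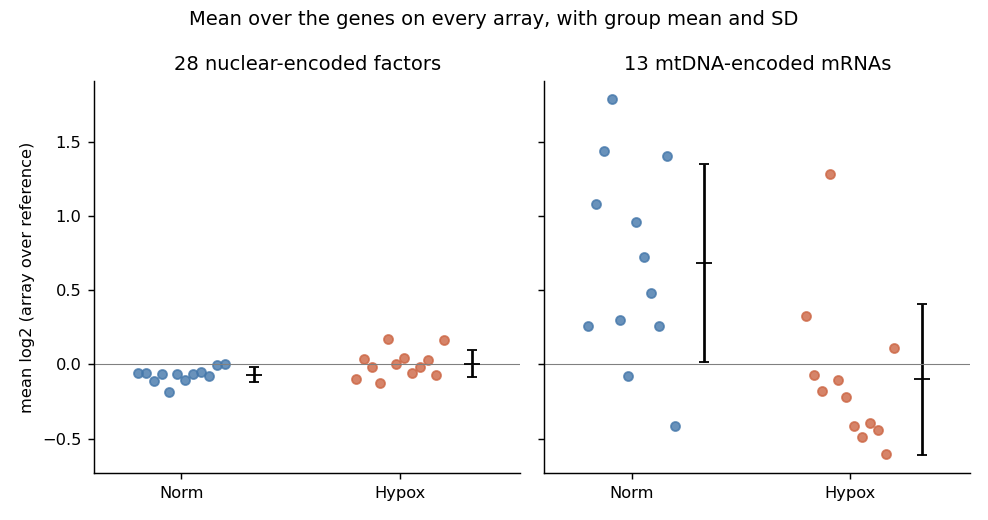
Mean log2 ratio of sample over reference (y axis) over the 28 measured nuclear-encoded members (left) and over the 13 mtDNA-encoded mRNAs (right) on each of the 24 arrays, with group mean and SD. The member means stay between -0.19 and 0.17, while those of the mtDNA-encoded mRNAs run from -0.61 to 1.79 and are mostly lower in Hypox.

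Other genes of the same pathway were counted by lists of genes with a probe on the array, to be read against the 12.2% of all genes that passed the unadjusted threshold. Of other mtDNA maintenance genes, 16 of 21 were measured with a median log2 fold change of 0.09. Of these, 2 passed the unadjusted threshold, both higher in Hypox, *Endog* (0.46 ± 0.14, SE, adjusted P = 0.139), a mitochondrial endonuclease, and *Rnaseh1* (0.17 ± 0.08), which removes RNA from RNA-DNA hybrids. Of genes that process, modify or degrade mitochondrial RNA, 30 of 38 were measured with a median of 0.07. Here 4 passed, all higher in Hypox, *Trub2* (0.35 ± 0.08, SE, adjusted P = 0.0565) and *Rcc1l* (0.22 ± 0.08), both of a pseudouridine synthase module that acts on mitochondrial ribosomal RNA, *Rexo2* (0.12 ± 0.05), an exonuclease of short RNAs, and *Trmu* (0.24 ± 0.10), which thiolates mitochondrial tRNAs.

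Of the remaining genes of mitochondrial translation and ribosome assembly, 22 of 24 were measured with a median of 0.05, and 1 passed, *Mrpl58* (0.25 ± 0.09, SE), a peptidyl-tRNA hydrolase of the ribosome. Of 11 nuclear regulators of mitochondrial biogenesis, 8 were measured with a median of 0.02, and none passed. None of the genes in these lists passed after adjustment. The shares that passed, 12.5%, 13.3% and 4.55% for the first 3 lists, were near or below that of all genes. Without Hypox replicate 2, *Rnaseh1* (P = 0.0581) and *Trmu* (P = 0.0626) no longer passed. *Endog*, *Trub2* and *Rcc1l* are among the genes the study picked from these samples.

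Markers of other cells and fibers were counted in short lists. The counts are to be read against 12.2% of all genes past the unadjusted threshold and 58.8% above 0. In every list given here the ranges of the 2 groups overlapped. Of 6 slow fiber markers, all measured, all 6 had log2 fold changes above 0 with a median of 0.38, and 2 passed the unadjusted threshold (*Tnni1* and *Tnnc1*). The mean of the list ran from -2.20 to 0.56 on the Norm arrays and from -0.36 to 0.11 on the Hypox arrays. Of 8 endothelial markers 5 were measured, 3 were above 0 with a median of the 5 of 0.18, and 2 passed as higher, with list means of -0.40 to 0.00 in Norm and -0.19 to 0.04 in Hypox. Of 6 adipose markers 4 were measured, all 4 were below 0 with a median of -0.28, and 2 passed, with list means of -0.68 to 0.91 in Norm and -0.71 to -0.13 in Hypox. All 5 nerve markers were measured and below 0 with a median of -0.17, and 2 passed, with list means of -0.12 to 0.46 in Norm and -0.32 to 0.11 in Hypox. Of 6 lung markers, *Sftpc* alone was measured, at 0.81 ± 0.31 (SE) higher in Hypox, with values of -2.04 to -0.16 in Norm and -1.40 to 2.57 in Hypox. Without Hypox replicate 2 the nerve marker *Prx* no longer passed (P = 0.0549). Of the 9 fast and general muscle markers, all measured, 3 were above 0 and 6 below 0 with a median of -0.15, and none passed. None passed among the 3 of 4 red blood cell markers and the 2 of 6 immune cell markers that were measured. Each of the marker genes named passed only the unadjusted threshold, and the part of these cells and fibers in the members' values was not tested.

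Promoter sequence played no part in the choice of the members, and 4 motifs were counted in it. RefSeq windows (GRCm38.p6) from 250 bases before to 50 bases after the gene start were given for 30 of the 33 members, not for *Hars2*, *Mtif3* and *Pars2*. The letters CCGGAAG, the core bound by ETS factors such as GABPA, were found on either strand in 13 of the 30 windows, which is 43.3%. They were in 9.93% of the windows of all 27025 genes and in 20.9% of those of the 7241 tested genes with a window. The 13 members were *Polg*, *Polg2*, *Peo1*, *Ssbp1*, *Tfam*, *Polrmt*, *Tufm*, *Gfm1*, *Mtif2*, *Cars2*, *Mars2*, *Rars2* and *Sars2*, so that all 5 replication factors held them.
Tfam: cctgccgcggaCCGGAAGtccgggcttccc
Polg: gaggacctcacCCGGAAGtccctctgcacc
Ssbp1: ggctccgtgcgCCGGAAGcgagccgctggc
Polrmt: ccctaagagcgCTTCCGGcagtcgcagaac
Tufm: cctcatttccgCCGGAAGtgatctgcagtc
These 30-base stretches, one for each of 5 core factors, are written in the direction of the gene with the match in capitals. They lie at chr10:71238073-71238102 for *Tfam*, chr7:79466293-79466322 for *Polg*, chr6:40471410-40471439 for *Ssbp1*, chr10:79746606-79746635 for *Polrmt* and chr7:126487342-126487371 for *Tufm* (GRCm38.p6). In *Polrmt* the match is on the opposite strand and reads CTTCCGG. The match began at position -47 from the gene start in *Tfam* and *Ssbp1* and at position -2 in *Tufm*.

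The 11 measured members that held it had a median log2 fold change of 0.08, and the 14 measured members whose window did not hold it had one of 0.11. The letters ACGTG, a form of the core of the hypoxia response element, were in 9 of 30 windows, against 21.8% of all genes and 29.7% of tested genes. Other forms of that core were not counted. Median log2 fold changes were -0.01 for the 6 measured members that held ACGTG and 0.12 for the 19 that did not. The FOXO letters GTAAACA were in 4 windows (*Iars2*, *Vars2*, *Polg2* and *Tfb2m*), which is 13.3% against 4.05% of all genes and 3.33% of tested genes. The letters TGCGCATGC of the NRF1 motif were in 2 windows, those of *Rars2* and *Polrmt*, which is 6.67% against 1.72% of all genes and 3.40% of tested genes. All 4 motifs were searched on both strands, their overlaps were not removed, and a match is a description of the letters only.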

How the data were processed

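RNA of 24 *M. gastrocnemius* samples, 12 Norm and 12 Hypox, was read on 2-colour arrays. The authors scanned them with Agilent Feature Extraction 10.7.3.1, and the deposited scanner files hold spot and background intensity per channel, flags of other kinds (well above background, outlier) and the mm9 annotation. The authors also deposited a table of log2 values of 21335 rows, made with another program after a filter against the background; how it used Cy3 is not stated, and it served as an alternative. Dyes were taken from the sample descriptions (Cy5 sample, Cy3 reference pool), since the dye field of some Hypox samples names other dyes.

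Intensities were corrected with normexp (offset 50) and normalized by loess within arrays in limma 3.58.1 (R 4.3.3). Outlier-flagged spot readings (7260) were left out, and no spot was saturated. Of 55681 probes, 27235 were named by accession, 3581 by symbol and 565 by synonym in RefSeq, and 24300 had no match. Probes with mean Cy5 over 2 times background and a value on at least 20 arrays were kept (14312), and the brightest probe stood for each of 9139 genes. The contrast of Hypox over Norm was fitted in limma (moderated test), and P-values were adjusted by Benjamini-Hochberg over all genes. The label replicates are separate animals. The number of arrays and their signal over background limit the precision. A simulated set with the spread of the 9139 genes, in which 200 were shifted by a log2 change of 1, gave 99.5% of these back and 6 false calls. The log2 fold changes of the measured members ran from -0.21 to 0.36, and the recovery of changes of that size was not tested. Members, lists and motifs were chosen with earlier results of these data known. All 33 members were named, each measured one with its fold change, and array values were given for those past an unadjusted 0.05 and for the smallest P-value of each role. No value column was left unmapped. Alternatives were other scalings and backgrounds, the deposited values, the methods' t-test, other filters and probes, slide or replicate blocks, array weights, and leaving out each array. Python 3.11.15 was used for sequences and figures.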

Additional observations from a re-analysis of the deposited data

How the results depend on the processing

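No member passed the adjusted 0.05 in any of the 13 alternative fits or the 24 fits that left out 1 array, and the median of the members lay above that of all genes in each of these fits. At the unadjusted 0.05, 3 members and 1111 genes passed. Centred on the median, 0 members and 32 genes passed, and *Mtif2* turned to 0.17. With the deposited values 1 member and 488 genes passed, and with array weights 5 members and 1716 genes. With the Cy5 channel alone 732 genes passed and with no filter on dim probes 1936; the latter added *Mars2*, which was well above background on no array. The causes were not tested. Leaving out 1 array gave 2 to 5 members and 976 to 1290 genes, with the 5 members without Hypox replicate 12. By the methods' t-test 3 members and 1105 genes passed, and none of the members after adjustment. With the replicate number as a block, 2 members and 1191 genes passed, and *Pars2* did not (P = 0.0539). Samples of 1 number deviated together (correlation over 0.1) in only 3 of 12 pairs, so the number was taken as a name. With the slide as a block 3 members and 1289 genes passed. Low signal limits the 5 members not measured and *Ears2*, *Hars2*, *Polg*, *Polg2*, *Tsfm* and *Pars2*, which were at 2.20 to 3.02 times background. On slide 1 the probe that stood for *Mtif3* was at 1.17 to 1.43 times background.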
